A study of Mus musculus with 6 samples.

Results

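The Reg family secreted lectins described here are the 5 genes of the deposited count table whose symbols are Reg1, Reg3a, Reg3b, Reg3g or Reg4, out of 17526 genes in all. They were measured by mRNA sequencing of crypts isolated from mouse small intestine. A crypt is a pit in the gut lining with stem cells and Paneth cells at its base and dividing cells above them. The knockout group had 3 libraries, from mice labelled VKO whose Fpr2 gene is knocked out in the intestinal epithelium, and the floxed control group had 3 libraries, titled flox, with the genotype given as WT and the mice written as Fpr2f/f. Fpr2 encodes formyl peptide receptor 2, and the study asks how its loss bears on stem cell proliferation and differentiation. The labels do not spell out VKO, the Cre driver, the age or the sex of the mice, or say whether each library is a different animal. The p-values therefore measure library-to-library spread, part of which may be technical. The level of Fpr2 was not analysed here, which leaves the labelled genotypes unchecked. All 19 Paneth cell markers and all 15 crypt base stem cell markers found in the table passed the filter on low counts. Floxed controls 1 and 3 stood apart by high lymphocyte transcripts. Floxed control 2 and knockout 1 stood apart by clock genes, whose summed transcripts were low there although some of these genes were high. The values of each member are therefore also given without these libraries or within them where this matters.

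Reg proteins are small secreted proteins built around a single C-type lectin-like domain. In the small intestine, Reg3g and Reg3b are released by Paneth cells and enterocytes and act against bacteria in the mucus: Reg3g binds the peptidoglycan of Gram-positive bacteria and keeps them away from the epithelial surface. Their genes are switched on by microbial signals through MyD88 and by interleukin-22 through STAT3. Reg4 is made by endocrine and other secretory cells of the crypt, and Reg1, first known from the pancreas, is also made in the small intestine.

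Of the 5 members, 4 lie with Reg2 and Reg3d in a cluster that spans 98.0 kb of chromosome 6, while Reg4 lies alone on chromosome 3. In RefSeq coordinates on GRCm38.p6, the assembly that mm10 carries, Reg3b lies at chr6:78370885-78373466 and Reg3a at chr6:78380709-78383839, both on the plus strand. Reg1 lies at chr6:78425983-78428668 on the plus strand and Reg3g at chr6:78466269-78468874 on the minus strand. Reg4 lies at chr3:98222138-98236748 on the plus strand.

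The 250 bases before the RefSeq start of the most abundant members, Reg3b and Reg3g, are shown because these genes had similar levels in each library, and those of Reg4 because it alone had groups that did not overlap. Each is written in the direction of its gene, and capitals mark the longest run shared by Reg3b and Reg3g, 20 bases that end at the base before the start. The windows are chr6:78370635-78370884 on the plus strand for Reg3b, chr6:78468875-78469124 on the minus strand for Reg3g and chr3:98221906-98222155 on the plus strand for Reg4, whose transcript starts slightly inside the annotated gene, all in GRCm38.p6.
Reg3b: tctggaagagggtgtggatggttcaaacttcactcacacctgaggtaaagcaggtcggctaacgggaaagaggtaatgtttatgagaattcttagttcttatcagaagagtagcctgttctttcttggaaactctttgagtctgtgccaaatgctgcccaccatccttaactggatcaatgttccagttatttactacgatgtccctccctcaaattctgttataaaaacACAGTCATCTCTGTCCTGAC
Reg3g: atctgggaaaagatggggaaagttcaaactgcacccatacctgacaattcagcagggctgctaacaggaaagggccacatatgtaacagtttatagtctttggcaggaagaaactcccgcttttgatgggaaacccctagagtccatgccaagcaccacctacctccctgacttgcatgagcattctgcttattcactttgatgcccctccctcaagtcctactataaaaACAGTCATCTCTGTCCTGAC
Reg4: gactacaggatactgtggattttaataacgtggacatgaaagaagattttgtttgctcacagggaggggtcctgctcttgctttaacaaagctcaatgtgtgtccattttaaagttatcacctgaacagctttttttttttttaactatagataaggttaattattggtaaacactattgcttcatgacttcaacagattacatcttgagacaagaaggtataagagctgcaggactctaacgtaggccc

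Over these 250 bases Reg3b and Reg3g were 68.4% identical in a global alignment, and every other combination of 2 members had between 44.9% and 49.5%. The windows were aligned end to end from each annotated start, so a shift between starts lowers the value. The last bases of the Reg3a window recur in the Reg3g window, further from the start. The low values of Reg3a therefore do not show that its upstream sequence is unlike that of the other Reg3 genes. The motif TTCNNNGAA, the core letters of a STAT site, reads the same on both strands. It occurred in the Reg3b window, as TTCTTGGAA starting 129 bases before the start, and had no match in the windows of the other 4 members. Of 27025 RefSeq promoters of the same length, 7.18% held it. The letters TATAAA, searched after the sequences had been seen and on the gene's strand only, began 30 bases before the start of Reg1, 29 before that of Reg3b and 27 before that of Reg3g. They had no match in the windows of Reg3a and Reg4, and 8.12% of all promoters held them. In the Reg3g window they lie nearer the start than the bases shared with the end of the Reg3a window. The matching stretch of Reg3a was thus outside its window and was not searched. These matches describe letters and do not show that a factor binds.

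Sequence shared among the members could mix their reads. In GENCODE M21 transcripts, the longest open reading frames of Reg3b and Reg3g were 75.9% identical, those of Reg3a and Reg3b 73.6% and those of Reg3a and Reg3g 73.3%. Reg1 and Reg4 were between 50.1% and 59.7% identical to the other members. Between the longest coding transcripts of the members, no window of 50 bases, the length of the reads, was shared, even with 2 mismatches allowed. Only the transcript strand was searched. All 6 values of each member in the table were whole numbers, although the authors' counts are estimates of which 31.1% to 35.2% in a library are not whole. Of the 855 windows of the longest Reg1 transcript, 32 were also found in transcripts of other genes outside the family.

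Reg3b and Reg3g were far more abundant than the other members. They ranked 40 and 43 among all 17526 genes by mean CPM (counts scaled to a common library total, adjusted by TMM). Per kilobase of the longest coding transcript, Reg3b averaged 2810 ± 823 CPM in knockouts and 2892 ± 872 CPM in floxed controls, and Reg3g averaged 2454 ± 612 CPM in knockouts and 2763 ± 502 CPM in floxed controls (SD, n = 3 each). These neighbours in the order differed by less than the spread between libraries. Next came Reg4, with 96.6 ± 39.98 CPM per kilobase in knockouts and 303 ± 144 in floxed controls, then Reg3a with 24.8 ± 9.33 in knockouts and 32.9 ± 9.42 in floxed controls, and last Reg1 with 11.999 ± 4.70 in knockouts and 7.998 ± 4.33 in floxed controls. The gap between Reg3a and Reg1 exceeded the SD of each in both groups. The remaining genes of the cluster were hardly detected: Reg3d had 10, 3 and 11 counts in knockouts 1, 2 and 3 and 10, 7 and 7 counts in floxed controls 1, 2 and 3. Reg2 had 0 counts in the knockouts, which allows at most 0.0597 CPM over the 3 libraries together (3 counts; counting error only), and 1 count in the floxed controls. Both fell below the filter on low counts, so that the 5 members were tested and these 2 relatives were not.

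**Figure D1:**
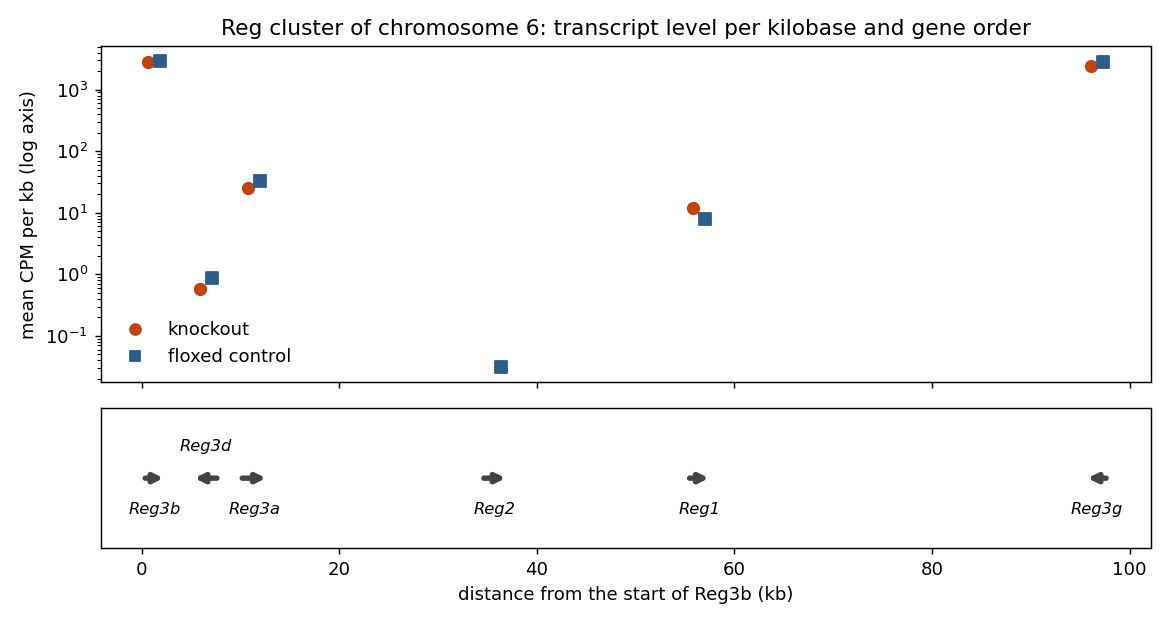
Mean CPM per kilobase of transcript (log axis) for the 6 Reg genes of chromosome 6 against distance from the start of Reg3b in kb, with knockouts as circles and floxed controls as squares, and arrows for the direction of each gene. Reg3b and Reg3g, at the ends of the 98.0 kb cluster, stand near 2810 and 2454 CPM per kilobase in knockouts, above Reg3a, Reg1 and Reg3d; Reg2 had 0 counts in knockouts, so only its floxed control point is drawn.

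In the comparison of knockout with floxed control, none of the 5 members passed at an adjusted p under 0.05 over all 12943 genes tested by edgeR's quasi-likelihood test, which called 2 genes or 0.0155% of those tested. At an unadjusted p under 0.05 it gave 1776 genes, 13.7% of those tested, of which Reg4 was the only member. DESeq2 called 323 genes, 2.35% of those it adjusted, and of the members it called Reg4, among the 2.08% that it called lower in knockouts. Limma-voom called 1 gene or 0.00773%, and no member. Reg4 was also the only member whose groups did not overlap, as 17.3% of all genes tested did not. Together the 5 members took 0.453% ± 0.109 of all counts in knockouts and 0.440% ± 0.0982 in floxed controls (SD, n = 3 each), a difference smaller than the spread between libraries. With the alpha-defensin genes and Lyz1 (31 genes) left out of the totals, the share was 0.483% ± 0.119 in knockouts and 0.530% ± 0.0845 in floxed controls. Total counts ran from 16542933 to 16859902 in knockouts and from 11108511 to 16695304 in floxed controls.

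**Figure D2:**
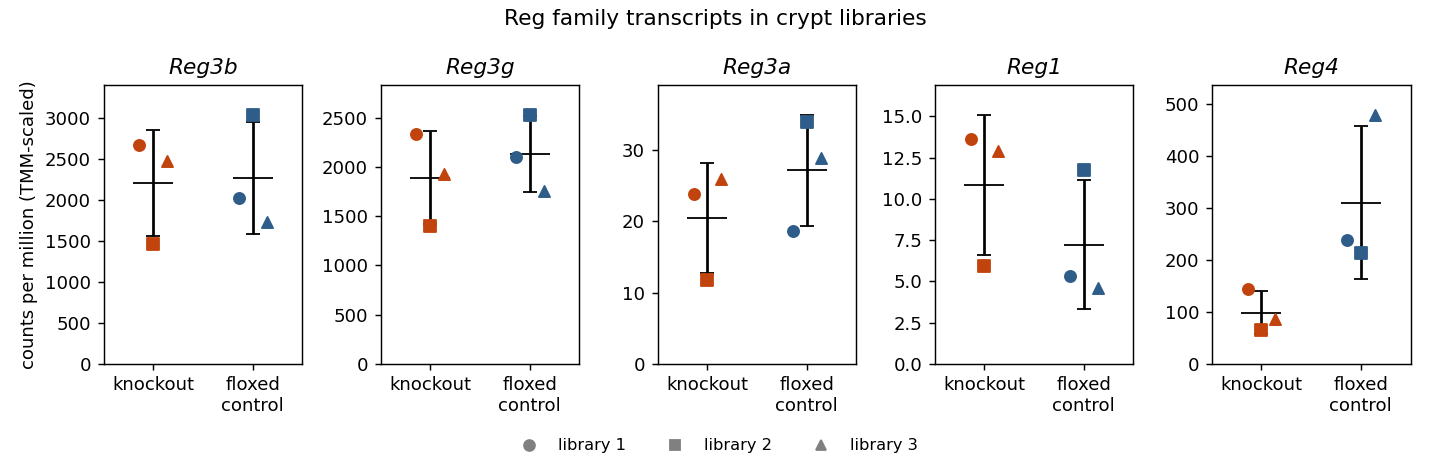
CPM of each member in each library, with knockouts left of floxed controls, marker shapes for libraries 1, 2 and 3, and the mean ± SD of 3 libraries as a bar; each panel has its own axis from 0. The groups overlap for Reg3b, Reg3g, Reg3a and Reg1, whereas the 3 knockouts lie between 65.1 and 144 CPM for Reg4, below the floxed controls at 212 to 479 CPM.

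Reg3b had 2668, 1465 and 2468 CPM in knockouts 1, 2 and 3, against 2024, 3035 and 1735 CPM in floxed controls 1, 2 and 3. The groups overlapped, with the highest library a floxed control and the lowest a knockout. The log2 change was -0.04 ± 0.31 (SE), with a 95% interval of -0.72 to 0.64 and an adjusted p of 0.972 by edgeR. The interval leaves room for a change of either sign. The sign of the small estimate was set by single libraries, since it was 0.24 without floxed control 2 and 0.19 without knockout 2.

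Reg3g, the peptidoglycan-binding lectin, had 2341, 1400 and 1934 CPM in knockouts 1, 2 and 3, against 2102, 2531 and 1758 CPM in floxed controls 1, 2 and 3. As for Reg3b, floxed control 2 was the highest library, knockout 1 came next and knockout 2 was the lowest. The log2 change was -0.17 ± 0.27, with a 95% interval of -0.76 to 0.42 and an adjusted p of 0.835 by edgeR. Without knockout 2 it was 0.0091. The ratio of Reg3b to Reg3g counts was 1.14, 1.05 and 1.28 in knockouts 1, 2 and 3, against 0.963, 1.20 and 0.987 in floxed controls 1, 2 and 3. The ratio varied far less than either level: Reg3b spanned a 2.07-fold range over the 6 libraries and Reg3g a 1.81-fold range.

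Floxed control 2 and knockout 1, the libraries highest in both genes, were also set apart by clock genes. The 16 listed clock genes summed to 317 CPM in knockout 1 and 539 and 501 CPM in knockouts 2 and 3, against 328 CPM in floxed control 2 and 562 and 513 CPM in floxed controls 1 and 3. Between knockout 1 and floxed control 2 alone, the log2 difference was -0.19 for Reg3b and -0.11 for Reg3g. Among the other 4 libraries it was 0.02 for Reg3b and -0.22 for Reg3g. The clock genes were not the only list that varied with these levels. Pearson's r of Reg3b over the 6 libraries was -0.749 with the mean of the clock list. It was -0.882 with distal and 0.252 with proximal small intestine genes. For Reg3g these values were -0.736, -0.733 and 0.312. The part of the clock genes or of these other lists in the levels was not tested.

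Reg3a, a further Reg3 lectin of the cluster, had 23.8, 11.7 and 26.0 CPM in knockouts 1, 2 and 3, against 18.7, 34.0 and 28.9 CPM in floxed controls 1, 2 and 3. Knockout 2 was again the lowest library and floxed control 2 the highest, and the groups overlapped. The log2 change was -0.41 ± 0.30, with a 95% interval of -1.08 to 0.26 and an adjusted p of 0.601 by edgeR. It was -0.51 between knockout 1 and floxed control 2 and -0.41 among the other 4 libraries. Without knockout 2 it was -0.12, without floxed control 2 it was -0.21, and without knockout 3 it was -0.61.

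Reg1 was the member with a positive estimate. It had 13.7, 5.96 and 12.9 CPM in knockouts 1, 2 and 3, against 5.33, 11.7 and 4.63 CPM in floxed controls 1, 2 and 3. Knockouts 1 and 3 and floxed control 2 formed a high set and the other 3 libraries a low one, so the groups overlapped. The log2 change was 0.56 ± 0.39, with a 95% interval of -0.30 to 1.42 and an adjusted p of 0.572 by edgeR. It reached 1.13 without floxed control 2 (adjusted p = 0.0917 by edgeR) and was -0.055 without floxed controls 1 and 3, a setting that leaves 1 control library. The low floxed controls 1 and 3 were those with high lymphocyte transcripts: the listed T cell and innate lymphocyte markers, of which 16 of 18 were in the table, summed to between 91.3 and 181 CPM in knockouts, against 327, 96.8 and 295 CPM in floxed controls 1, 2 and 3. By edgeR 0 of 13 tested passed, 10 had an unadjusted p under 0.05, all of them lower, and DESeq2 called 6. Il23r and Il17a had at most 1 count in any library. Gzma, a granzyme of cytotoxic lymphocytes, had a log2 change of -1.40 ± 0.36. The lymphocyte sum did not follow the Reg1 sets in every library. Knockout 2, also low in Reg1, had a lower sum than knockout 3, which was high in Reg1 and had the 181 CPM. Knockout 1, with the 91.3 CPM, and floxed control 2 had the lowest sums and were high in Reg1. Other lists varied with Reg1 as closely. Its Pearson's r over the 6 libraries was -0.793 with the mean of the lymphocyte list. It was 0.861 with fibroblast markers, -0.851 with myeloid markers and -0.846 with distal small intestine genes. The part of lymphocytes or of these other lists in the Reg1 values was not tested.

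Reg4 was lower in every knockout than in every floxed control. It had 144, 65.1 and 86.7 CPM in knockouts 1, 2 and 3, against 238, 212 and 479 CPM in floxed controls 1, 2 and 3. The mean was 98.6 ± 40.8 CPM in knockouts and 310 ± 147 CPM in floxed controls (SD, n = 3 each). The log2 change was -1.65 ± 0.35 (SE), with a 95% interval of -2.43 to -0.87. It did not pass over all genes by edgeR (adjusted p = 0.117, unadjusted p = 0.000736) or by limma-voom (adjusted p = 0.128), while DESeq2 called it (adjusted p = 0.000131). Of all genes tested, 98.9% had a smaller absolute log2 change, and 10.3% had every knockout below every floxed control.

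The size of the Reg4 difference depended on single libraries. It was -1.16 without floxed control 3, the highest library (adjusted p = 0.723 by edgeR). It was -1.05 without floxed controls 1 and 3, where 1 control library is left and the spread comes from the knockouts alone, so that the test there says little. It was -1.85 without floxed control 2, where edgeR called it (adjusted p = 0.0286) as 1 of 955 genes, against 2 genes called with all libraries. Between knockout 1 and floxed control 2, the libraries set apart by clock genes, the log2 difference was -0.56, against -2.17 among the other 4.

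**Figure D3:**
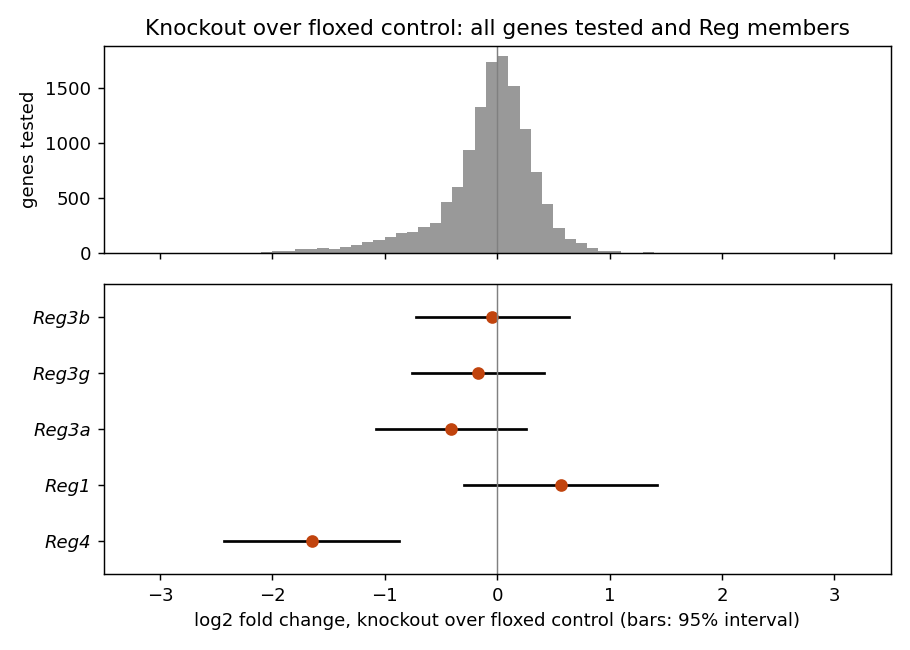
Top, number of genes per bin of log2 fold change, knockout over floxed control, for the 12943 genes tested, with values beyond the axis drawn in the end bins. Bottom, the log2 fold change of each member as a point with its 95% interval: the interval of Reg4 runs from -2.43 to -0.87, and those of Reg3b, Reg3g, Reg3a and Reg1 include 0.

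Marker lists of the secretory cells, and of several other cell types, had mostly negative log2 changes beside that of Reg4. Of the Paneth cell markers, 19 of 20 listed were in the table and tested, and each had a negative log2 change. Their median was -1.65, beside -0.0131 over all genes tested. Their summed level ran from 27149 to 42369 CPM in knockouts and from 80083 to 157003 CPM in floxed controls. By edgeR 0 of them passed over all genes, 18 reached an unadjusted p under 0.05 (9.63% of all genes did so in this direction), and 18 were called by DESeq2. Habp2, a hyaluronan-binding protease, Pnliprp2, a lipase-related protein, and the alpha-defensin gene Defa26 had the smallest p-values, at log2 changes of -1.41 ± 0.23, -1.84 ± 0.31 and -1.72 ± 0.29.

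Goblet cell markers were negative in each of 17 tested genes, with a median of -0.82. Of these, 0 passed by edgeR, 14 reached an unadjusted p under 0.05, and 7 were called by DESeq2. The smallest p-values were those of the chemokine gene Ccl9 (log2 change -1.28 ± 0.23), Rep15 (-0.9999 ± 0.19) and the transcription factor gene Foxa3 (-1.03 ± 0.21). Their sum ran from 8777 to 13802 CPM in knockouts and from 14990 to 22230 CPM in floxed controls. Enteroendocrine markers were negative in each of 26 tested genes, with a median of -0.79. By edgeR 0 passed, 21 reached an unadjusted p under 0.05, and 4 were called by DESeq2. Gcg, which encodes proglucagon, and the endocrine transcription factor genes Insm1 and Fev had log2 changes of -0.87 ± 0.20, -0.93 ± 0.21 and -1.08 ± 0.26. Their sum ran from 499 to 708 CPM in knockouts and from 823 to 1275 CPM in floxed controls. Enterocytes, a source of Reg3b and Reg3g, gave 3 positive and 19 negative values among 22 tested markers, with a median of -0.19. None passed over all genes (0 by edgeR), 3 reached an unadjusted p under 0.05, all of them lower, and 2 were called by DESeq2. Their sum ran from 7687 to 12234 CPM in knockouts and from 8215 to 15622 CPM in floxed controls, and so overlapped. Tuft cell markers, a further secretory type, were negative in each of 12 tested genes, with a median of -1.03. Of the 12, 0 passed by edgeR, 11 reached an unadjusted p under 0.05, and 7 were called by DESeq2. Summed, they ran from 103 to 157 CPM in knockouts, against 325, 152 and 290 CPM in floxed controls 1, 2 and 3, and so overlapped. Crypt base stem cell markers gave 1 positive and 14 negative values, with a median of -0.33, of which 0 passed by edgeR, 6 reached an unadjusted p under 0.05 and 1 was called by DESeq2. Their sum ran from 1960 to 2738 CPM in knockouts and from 2742 to 3544 CPM in floxed controls. B and plasma cell markers were negative in each of 7 tested genes, with a median of -1.79, of which 0 passed by edgeR, 7 reached an unadjusted p under 0.05 and 1 was called by DESeq2. Summed, they ran from 10.6 to 18.1 CPM in knockouts, against 57.9, 16.5 and 43.5 CPM in floxed controls 1, 2 and 3, and so overlapped. The high values were those of floxed controls 1 and 3, the libraries with high lymphocyte transcripts. Genes of the G2 and M phases of the cell cycle went the other way, positive in each of 20 tested, with a median of 0.47, of which 0 passed by edgeR, 9 reached an unadjusted p under 0.05 and 2 were called by DESeq2. Summed, they ran from 2143 to 2370 CPM in knockouts and from 1317 to 2218 CPM in floxed controls, and so overlapped. None of the tested Paneth, goblet or enteroendocrine markers was at 0 in any library. In RNA from whole crypts, fewer cells of a type and less RNA per cell cannot be told apart, and the part of any of these lists in the Reg4 difference was not tested.

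The ratio of Reg4 to Lyz1, the Paneth cell lysozyme, overlapped between the groups. The log2 ratio of Reg4 to Lyz1 was -6.75, -7.34 and -6.64 in knockouts 1, 2 and 3, against -7.05, -6.99 and -6.88 in floxed controls 1, 2 and 3. The mean log2 ratio differed by 0.07 between the groups (exact two-sided permutation p = 0.9). Against Chga, the chromogranin of endocrine granules, the log2 ratio was 0.36, -0.48 and -0.63 in knockouts and 0.05, 0.51 and 0.95 in floxed controls, a difference of -0.75 (exact permutation p = 0.2). Against Muc2, the main secreted mucin, the log2 ratio was -3.65, -4.03 and -3.35 in knockouts and -2.92, -2.87 and -1.97 in floxed controls. Every knockout was below every floxed control there, by -1.09 on average (exact permutation p = 0.1, and 0.3 adjusted over the 3 ratios). No smaller exact p can be had from groups of 3. The ratios depend on the gene chosen. The log2 change was -1.73 ± 0.41 for Lyz1, -0.89 ± 0.22 for Chga and -0.48 ± 0.28 for Muc2. That of Muc2 was the smallest in size among the 17 tested goblet cell markers, whose median was -0.82.

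**Figure D4:**
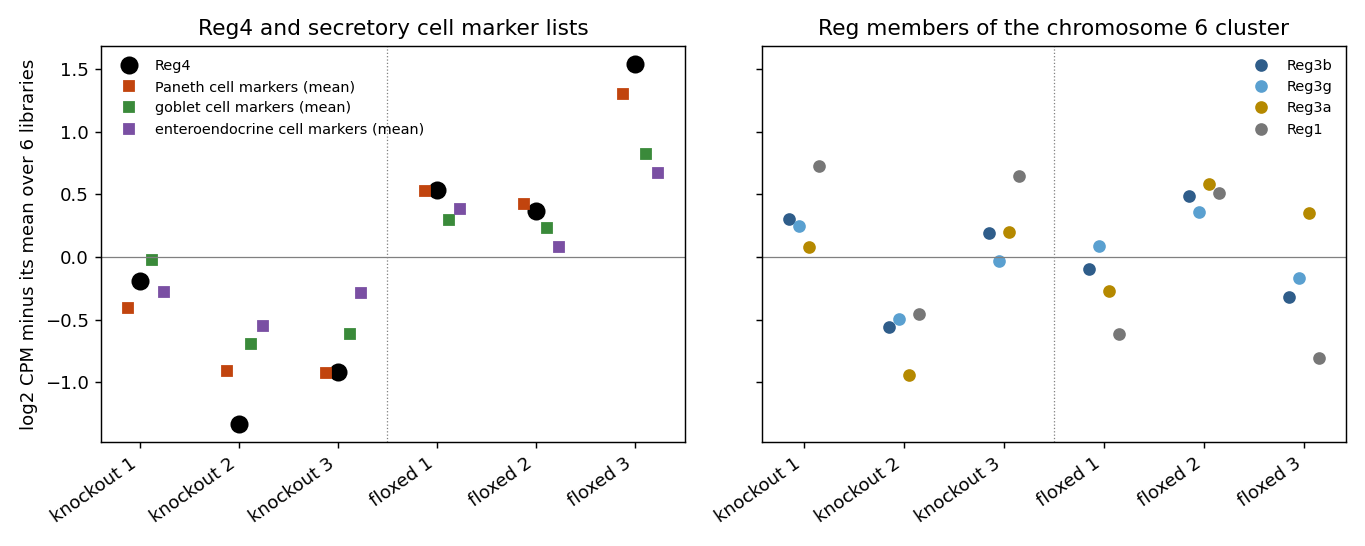
Log2 CPM minus its mean over the 6 libraries (y axis) in each library (x axis), left for Reg4 as circles and the mean of the Paneth, goblet and enteroendocrine marker lists as squares, and right for the members of the chromosome 6 cluster; the dotted line parts knockouts from floxed controls. Reg4 ranges from -1.33 in knockout 2 to 1.54 in floxed control 3 with all knockouts below 0 and all floxed controls above it, and knockout 2 is the lowest library for Reg3b, Reg3g and Reg3a.

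Pancreatic acinar cells also make Reg proteins, so their markers were examined. Of 23 listed genes, 11 were in the table and 8 were tested, 1 of them positive and 7 negative, with a median of -0.78. Of these, 0 passed by edgeR, 5 reached an unadjusted p under 0.05, and 3 were called by DESeq2. The smallest p-values were those of Rnase1 (log2 change -1.81 ± 0.30), Clps (-1.91 ± 0.33) and Pnliprp1 (-1.70 ± 0.32). The sum ran from 1120 to 1618 CPM in knockouts and from 2037 to 4193 CPM in floxed controls. That sum was mostly Zg16 and Clps, which are also expressed in the intestine: Zg16 had 929 to 1415 CPM in knockouts and 1399 to 2917 CPM in floxed controls, and Clps, the colipase gene, had 169 to 246 CPM in knockouts and 501 to 1154 CPM in floxed controls. The 3 listed genes that were in the table but below the filter, Ctrb1, Cel and Gp2, had at most 2 counts in any library. Ctrl, a chymotrypsin-like protease and the positive gene of the list, had 1.58, 1.502 and 2.02 CPM in knockouts 1, 2 and 3, against 0.786, 1.31 and 0.886 CPM in floxed controls 1, 2 and 3. Its log2 change of 0.75 ± 0.37 did not pass (adjusted p = 0.405 by edgeR).

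Whether the members differed from one another in their response was tested on ratios. Within each library, the log2 CPM of one member minus that of another was compared between the groups for the 10 combinations of 2 members. Each of the 4 combinations with Reg4 separated the groups fully, with Reg4 lower relative to the other member in knockouts. Relative to Reg4, Reg3b stood at 4.51 ± 0.31 in knockouts and 2.93 ± 0.999 in floxed controls (SD, n = 3 each), a difference of 1.58. The difference was 1.44 for Reg3g, 1.18 for Reg3a and 2.25 for Reg1. These sizes leaned on floxed control 3, without which they were 1.05 for Reg3b, 0.95 for Reg3g, 0.89 for Reg3a and 1.63 for Reg1. With floxed control 2 as the only control they were 0.67, 0.73, 0.37 and 0.98 in the same order of members. Reg1 was also higher in every knockout relative to Reg3b, by 0.67, and relative to Reg3a, by 1.07. The other 4 combinations overlapped between the groups. Each of the 6 that separated had an exact two-sided permutation p of 0.1, the lowest value possible here, and 0.167 adjusted over the 10 combinations. Reg3b minus Reg3g stood at 0.20 ± 0.14 in knockouts and 0.06 ± 0.17 in floxed controls, a difference of 0.14 that was no larger than the spread (exact permutation p = 0.3).

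Genes of the signals that induce the Reg3 lectins had values of both signs. Of the interleukin-22 and STAT3 list, 15 of 17 genes were tested, 4 of them positive and 11 negative, with a median of -0.29. By edgeR 0 passed over all genes, 2 reached an unadjusted p under 0.05, and 1 was called by DESeq2. Stat3, the transcription factor itself, had 81.0, 68.8 and 69.6 CPM in knockouts 1, 2 and 3, against 101, 92.8 and 87.0 CPM in floxed controls 1, 2 and 3. Every knockout was below every floxed control, with a log2 change of -0.35 ± 0.15 that did not pass (adjusted p = 0.338 by edgeR). Il22ra1, the epithelial subunit of the interleukin-22 receptor, had a log2 change of -0.35 ± 0.18 (adjusted p = 0.424 by edgeR). Il10rb, the shared receptor subunit, had -0.34 ± 0.15. Il6ra, the interleukin-6 receptor, was the gene that DESeq2 called (log2 change -1.75 ± 0.46, adjusted p = 0.154 by edgeR and 0.0295 by DESeq2). It had 1.52, 1.07 and 1.01 CPM in knockouts 1, 2 and 3 and 4.98, 1.64 and 5.71 CPM in floxed controls 1, 2 and 3, so it was highest in the libraries with high lymphocyte transcripts.

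Of the MyD88 and NF-kB list, all 18 genes were tested, 9 positive and 9 negative, with a median of -0.0033. By edgeR 0 passed and 3 had an unadjusted p under 0.05, of which 1 was higher (4.09% of all genes were) and 2 were lower, and DESeq2 called 0. Nfkb2 and Irak1, an NF-kB subunit and a kinase downstream of MyD88, had log2 changes of -0.43 ± 0.16 and -0.34 ± 0.15, and Ikbkb, a kinase that activates NF-kB, had 0.41 ± 0.16.

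Other inducible defence genes of the epithelium gave 11 positive and 8 negative values among 19 tested of 25 listed, with a median of 0.05. By edgeR 0 passed, 3 had an unadjusted p under 0.05, all of them lower, and DESeq2 called 2, Ang4 and Itln1. Ang4, an antimicrobial ribonuclease, had a log2 change of -1.69 ± 0.35 and Itln1, the lectin intelectin-1, -1.77 ± 0.36. Both are also in the Paneth cell list. Among 16 tested galectins and other gut lectins, 6 were positive and 10 negative, with a median of -0.03. None passed over all genes (0 by edgeR), 2 reached an unadjusted p under 0.05, and 1 was called by DESeq2. Apart from Itln1, the smallest p-values were those of Zg16, a lectin of goblet cell mucus (log2 change -0.70 ± 0.31), and of Lgals1, galectin-1 (-0.67 ± 0.48).

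Extl3, a glycosyltransferase of heparan sulphate synthesis that has been proposed as a receptor for Reg proteins, had 30.7, 21.4 and 16.6 CPM in knockouts 1, 2 and 3, against 32.2, 29.6 and 34.3 CPM in floxed controls 1, 2 and 3. Knockout 1 overlapped the controls, and the log2 change was -0.48 ± 0.22 (adjusted p = 0.367 by edgeR). Of its list of 5 heparan chain enzymes, 1 was positive and 4 were negative. Of these, 0 passed by edgeR, 1 reached an unadjusted p under 0.05 (Extl1, at -0.69 ± 0.25), and 0 were called by DESeq2.

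The genes whose log2 CPM followed each member most closely over the 6 libraries were found by Pearson's r among genes of an average log2 CPM of at least 1. With 6 libraries and so many genes, high values occur readily, and they are given as a description. Reg4 was followed by Rbp4 (r = 0.997), Hpn (0.994) and Ang (0.993), with log2 changes of -1.14 ± 0.33, -1.13 ± 0.33 and -0.75 ± 0.19. Reg3b was followed by Tulp3 (0.985), Ppt1 (0.974) and Atp6v1h (0.964), and Reg3g by B3galt5 (0.983), Ptk6 (0.981) and Pelo (0.978). The closest to Reg3a were Syt14 (0.990), Rnf135 (0.988) and Nubpl (0.984), and the closest to Reg1 were Zbtb48 (0.995), Dlat (0.984) and Slc35f2 (0.982). Among the members themselves, Reg3b and Reg3g were the most alike (r = 0.927), followed by Reg1 and Reg3b (0.836). Reg4 had r = 0.589 with Reg3a, 0.352 with Reg3g, 0.0746 with Reg3b and -0.415 with Reg1. These values share the libraries and their scaling.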

How the data were processed

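The authors deposited expected counts (estimated counts per gene, not normalized) for 6 libraries of crypt RNA. Per the labels' protocols, an mRNA library kit of BGI was used and reads of 50 bases were taken from one end on the DNBSEQ platform. The build named in the submitters' notes is mm10. No aligner, counter, annotation or strand setting is given in the sources used here. The design had assumed raw counts. Values were rounded to whole numbers, since part of them are not whole. edgeR 4.0.16 in R 4.3.3 was run with filterByExpr on group, TMM scaling, robust glmQLFit and glmQLFTest for knockout over floxed control, with Benjamini-Hochberg adjustment over 12943 genes. CPM values use TMM-adjusted totals, and SDs are over 3 libraries. Intervals of 95% use the moderated degrees of freedom.

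Alternatives were DESeq2 1.42.0, limma-voom of limma 3.58.1, other scaling and filters, replicate number as a block, and libraries left out. Code was tested on simulated data. Sequences and lengths came from RefSeq (GRCm38.p6) and GENCODE M21, with Biopython 1.88 for alignment. Protein sequences were not used here. All 7 Reg genes matched by gene ID.

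The members and lists were chosen with earlier results of these data known, so patterns already seen in them, such as the lower secretory markers, are no independent support. Genes named besides the members were fixed anchors, up to 3 of the smallest p in a list described, and the 3 genes most like each member. Il23r, Il17a, Ctrb1, Cel, Gp2, Ctrl and the ratios of Reg4 to other genes were chosen after their values were seen.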

Additional observations from a re-analysis of the deposited data

How the results depend on the processing

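With 3 libraries a group, the 95% intervals of Reg3b, Reg3g, Reg3a and Reg1 are wide, and changes of any size within them remain possible. Larger changes could also go uncalled over all genes, as that of Reg4 did at -1.65 (adjusted p = 0.117 by edgeR). The log2 change of Reg4 was negative in all 15 alternative settings. It was -1.63 by DESeq2, -1.63 with a replicate block (adjusted p = 0.0395 by edgeR) and -2.23 without floxed control 2 and knockout 1, and was called in each; leaving out single libraries gave -2.02 to -1.16, called without floxed control 2 (-1.85). The replicate numbers did not pair the libraries: the correlations of same-numbered deviations were -0.177, -0.272 and 0.0681. The sign of Reg3b turned to 0.070 without floxed control 2 and knockout 1, and leaving out single libraries gave -0.20 to 0.24; Reg3g ran from -0.35 to 0.0091. Reg1 was -0.055 without floxed controls 1 and 3, and Reg3b minus Reg3g was -0.060 there. Reg3a stayed negative but ran from -0.61 to -0.12 with 1 library left out. The number of genes called, 2 by edgeR, was 0 with DESeq2 size factors and with TMM without the 50 most abundant genes, 1 by limma-voom, 323 by DESeq2, 67 with no filter beyond 1 count, 39 with a replicate block, 12 without floxed controls 1 and 3 and 920 without floxed control 2 and knockout 1. Leaving out single libraries gave 0 to 955 calls, the most without floxed control 2. The cause was not tested.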
